A study of Mus musculus with 6 samples.

Results

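The genes described here encode heterogeneous nuclear ribonucleoproteins (hnRNPs), serine- and arginine-rich (SR) proteins and other regulators of pre-mRNA splicing, read in mouse embryonic stem (ES) cells with and without Med23, a subunit of the Mediator complex. They were chosen by name, as 42 symbols, and each was represented by its brightest probe set on average, among those that the platform annotation gives to its symbol alone. This found 40 of the 42 genes among 18193 measured in all. Hnrnpa3 was left out because its 4 probe sets are annotated to Gm6793 as well, and no annotated probe set carried the symbol Srsf7. All cells were of the 129SV strain and were taken 24 hours after fresh complete ES medium was given, 3 cultures wild-type and 3 Med23 knockout. The labels do not say how the knockout was made, whether it is a single clone, or whether feeder cells were present. Med23 itself, on 1 probe set, had log2 values of 8.84 to 8.95 in wild-type and 7.33 to 7.40 in knockout cultures.

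Splicing removes introns from pre-mRNA on the spliceosome, and splicing regulators decide which splice sites it uses. SR proteins mostly bind exonic enhancers and favour inclusion, hnRNPs often bind silencers and favour skipping, and a set of regulators enriched in certain cell types, among them the ESRP, MBNL, RBFOX and CELF families, sets the splicing programme of epithelia, muscle or neurons. MED23 has been reported to act together with HNRNPL in alternative splicing, which makes the transcript levels of these factors in knockout cells of interest. An array of this kind reads the amount of transcript, not splicing itself.

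By their brightest probe sets, few of these transcripts differed between the genotypes. Of the 40 genes, 1 rose and 2 fell in the knockout at a limma adjusted p under 0.05 (moderated test over all probe sets), and 37 did not pass. Over all genes, 8.53% rose and 10.4% fell, 18.9% in either direction. The genes that passed were Hnrnpr (higher), and Esrp1 and Esrp2, regulators of epithelial splicing (lower). At an unadjusted p under 0.05, 3 of the 40 were higher and 9 lower, against 16.7% and 16.3% of all genes. The median log2 fold change (knockout minus wild-type) was -0.01, against 0.02 over all genes. The median size of the change, whatever its sign, was 0.09 on the log2 scale, against 0.13 over all genes. In 35 of the 40 genes the estimate lay within 0.25 of no change, and in 36 the whole 95% confidence interval lay within 0.5.

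The count of calls depended on the settings of the test. A variance trend with signal level gave 2 genes higher and 7 lower, or 22.5% of the 40, where 23.0% of all genes passed under that setting. Array weights gave 1 higher and 6 lower (21.7% of all genes passed), and testing only probe sets above the overall median gave 2 higher and 7 lower (35.8% of the genes left passed). Without wild-type replicate 1, 1 was higher and 5 were lower (20.5% of all genes passed), and without knockout replicate 2, 1 was lower and none higher (11.6%). By the second brightest probe set, which 33 of the genes have, 4 were higher (Hnrnpa2b1, Hnrnpd, Hnrnpr and Srsf6) and 2 lower (Hnrnpc and Srsf11), together 18.2%, against 7.80% higher and 8.09% lower, together 15.9%, of 9010 genes read the same way. The mean over a gene's probe sets gave Srsf6 higher and Elavl1, Esrp1 and Mbnl1 lower (21.8% of all genes passed). None was higher without knockout replicate 1 or 3 either, with 2 lower in each (12.3% and 11.7%). Without wild-type replicate 3 the gene that rose was Tra2a in place of Hnrnpr.

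The probe sets of 30 of the genes had a mean log2 value above 10, a limit set after seeing the data. Of these 30, 1 passed the test, against 21.3% of the 2207 genes above the same limit. The count depended on the setting. With the variance trend Hnrnpc, Hnrnpk, Hnrnpr, Srrm1, Srsf6 and Srsf11, all above the limit, passed. With the level filter all of these but Srsf11 passed. The share of the 2207 genes passing under those settings was not computed. Their median size of change was 0.07, against 0.12 over those 2207 genes. The 10 genes with lower values held both genes that fell and had a median size of change of 0.23.

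**Figure D1:**
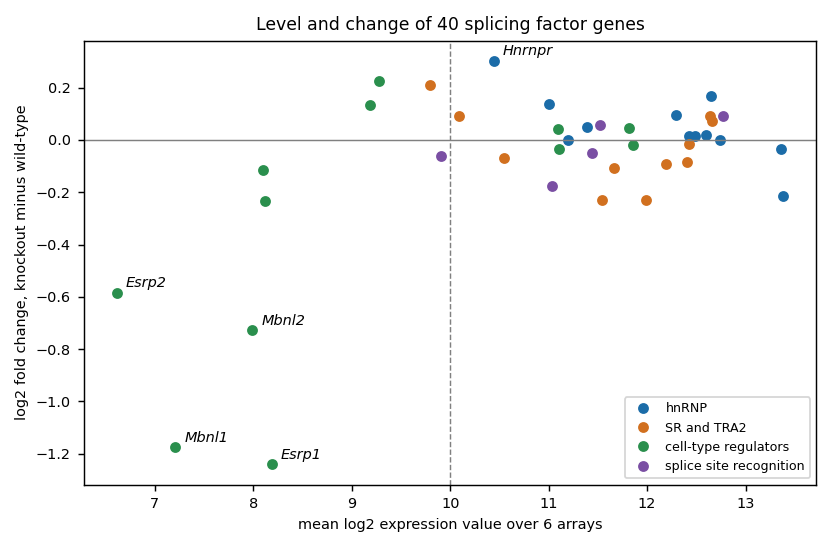
The log2 fold change (knockout minus wild-type, vertical axis) of each of the 40 genes is plotted against its mean log2 value over the 6 arrays (horizontal axis), coloured by role, with a dashed line at 10. The genes right of the line lie between -0.23 and 0.30, and the 4 lowest changes, those of Esrp1, Mbnl1, Mbnl2 and Esrp2, lie left of it.

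The arrays themselves bear on these counts. Values correlated at 0.993 to 0.997 among the wild-type and at 0.998 among the knockout arrays over all probe sets. In 20 of the 40 genes wild-type replicate 1 lay farther from its fellow replicates than these lay from each other. It was the lowest wild-type array in 19. These counts were not made for the other arrays or over all genes. The median standard deviation (SD) of a gene was 0.07 among wild-type and 0.03 among knockout arrays, and the wild-type SD was the larger in 31 genes. Replicates are called biological in the labels without further detail, so every p-value here rests on the scatter among these 6 arrays, which may be partly technical. As markers of ES cells, Pou5f1, Nanog, Sox2 and 7 others had means of 10.67 or more, and of these 10 genes none rose and 2 fell. Markers of other cells that an ES culture can hold moved with the genotype. Of 15 endoderm markers, 13 fell and none rose. Their mean log2 value per array was 6.82 to 7.25 in wild-type and 5.01 to 5.08 in knockout cultures. Only Afp and Ttr were under the overall probe set median (4.62) in both genotypes. Markers of any list that were under it in the knockout alone are not named here. Of 9 trophoblast markers, 4 fell and none rose, with means of 6.84 to 6.97 and 6.18 to 6.24. Cdx2 and Elf5 were under that median in both genotypes. Fibroblast markers gave 2 higher and 2 lower of 10, with means of 5.10 to 5.18 in wild-type and 5.04 to 5.13 in knockout cultures. Col1a1, Col1a2, Col3a1, Postn, Dcn and Lum were under the median in both genotypes.

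**Figure D2:**
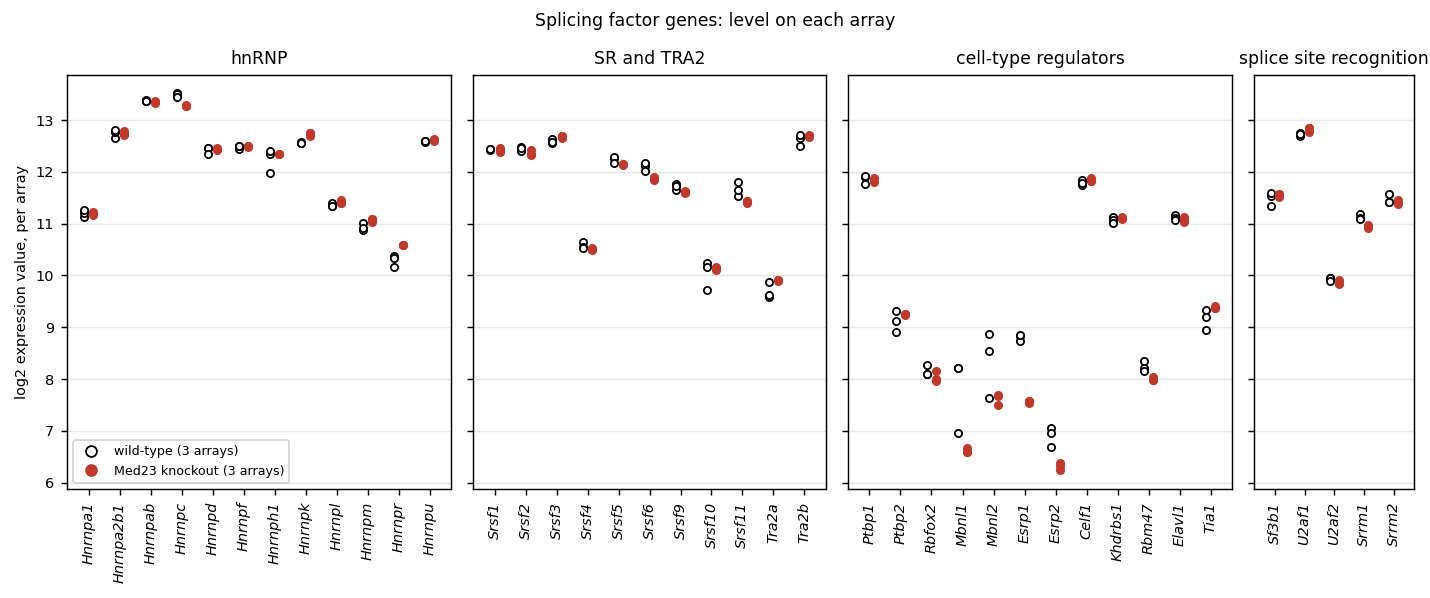
Each point is the log2 value of a gene on 1 array, with open circles for the 3 wild-type and red circles for the 3 knockout arrays, and genes grouped by role along the horizontal axis. Esrp1, Esrp2 and Mbnl1 are among 12 of the 40 genes with all red circles below all open ones, as in 19.5% of all genes measured. In 7 of the 40 they are all above, as in 21.4% of all genes. In Mbnl1 and Mbnl2 the lowest open circle, wild-type replicate 1, lies apart from the other open circles, and in Mbnl2 it lies among the red ones.

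The ESRP proteins bind GU-rich sites near alternative exons and promote epithelial isoforms, for example of the FGF receptors. Esrp1, read by 1 probe set, had log2 values of 8.83, 8.74 and 8.86 in the wild-type and 7.57, 7.59 and 7.55 in the knockout cultures, each in replicate order. Every knockout array thus lay more than 1 log2 unit below every wild-type array, and wild-type replicate 1 did not stand apart. Group means of 8.81 ± 0.06 and 7.57 ± 0.02 (SD, n = 3 each) differed by -1.24 (95% confidence interval -1.39 to -1.09, SE 0.06, limma adjusted p = 5.61e-05), which is 2.36-fold. The call held in each of the fits that left out 1 array (highest adjusted p = 0.000773). Only 1.20% of all genes had a change as low. The 20 nearest genes on chromosome 4 with values above the overall median had a median change of 0.08.

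Its paralogue Esrp2 had 7.06, 6.97 and 6.69 in wild-type and 6.39, 6.24 and 6.33 in knockout replicates 1, 2 and 3. The groups did not overlap, but the gap between the lowest wild-type and the highest knockout array was small beside that of Esrp1. Group means of 6.91 ± 0.19 and 6.32 ± 0.08 (SD, n = 3 each) differed by -0.58 (95% confidence interval -0.83 to -0.33, SE 0.11, limma adjusted p = 0.0113). Leaving out knockout replicate 2 ended the call (adjusted p = 0.0515), and the dimmer of its 2 probe sets gave a change of 0.0174 (adjusted p = 0.942; 0.00433 to 0.942 over all alternatives). Both Esrp genes are expressed in epithelia, and the trophoblast list holds 3 keratin genes of simple epithelia, Krt7, Krt8 and Krt18, all past the test, with log2 fold changes of -1.91, -2.52 and -1.67. The median of that list was -0.27, and Eomes, which did not pass, differed by 0.41. The part of endoderm- or trophoblast-like cells in the falls of Esrp1 and Esrp2 was not tested. In bulk RNA, fewer cells of a type and less RNA per cell cannot be told apart.

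Rbm47, which encodes another RNA-binding protein linked to epithelial and endodermal splicing, had 8.35, 8.21 and 8.15 in wild-type and 7.98, 8.03 and 7.99 in knockout replicates 1, 2 and 3. The groups did not overlap, yet the difference of -0.24 (95% confidence interval -0.41 to -0.06, adjusted p = 0.0817) did not pass the test; it passed when only probe sets above the overall median were tested (0.0360). Its array values are given after they were seen.

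MBNL proteins favour the splicing patterns of differentiated tissue over those of ES cells. Mbnl1 gave 6.96, 8.22 and 8.21 in wild-type and 6.68, 6.59 and 6.59 in knockout replicates 1, 2 and 3. Wild-type replicate 1 lay more than 1 log2 unit below its fellow replicates and close to the knockout arrays. The log2 fold change was -1.17 (95% confidence interval -1.93 to -0.42) and missed the threshold (limma adjusted p = 0.0529). The groups did not overlap. Without wild-type replicate 1 it was -1.59 with an adjusted p of 0.000165. It also passed with median centring (0.0456), the variance trend (0.0260), array weights (0.00757) and the level filter (0.0391). Leaving out any other array, it did not pass. The change was -0.96 (adjusted p = 0.156) without wild-type replicate 2 and -0.97 (0.146) without wild-type replicate 3. Without 1 knockout array the adjusted p was 0.124 to 0.142. Mbnl1 also did not pass with the replicate block (0.0631) or quantile normalization (0.0551). The mean over its 3 probe sets was -0.483 (0.0296), and its second brightest, under the overall median, gave -0.148 (0.413).

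Mbnl2 showed the same wild-type array apart, with 7.63, 8.55 and 8.88 in wild-type and 7.67, 7.51 and 7.70 in knockout replicates 1, 2 and 3. Here wild-type replicate 1 lay inside the knockout range, so the groups overlapped. The difference was -0.73 (95% confidence interval -1.41 to -0.04, adjusted p = 0.162), and without wild-type replicate 1 it was -1.09 (adjusted p = 0.00284). Without wild-type replicate 3 it was -0.465 (0.339) and as the mean over its 5 probe sets -0.423 (0.0896); it passed with array weights (0.0341), and the adjusted p ran up to 0.345 over all alternatives. Its 20 nearest genes on chromosome 14 reached up to 14.5 megabases away. They had a median change of -0.68, and 15 of them fell past the test. The change of Mbnl2 minus that median was -0.05. The neighbours of Mbnl1 on chromosome 3 had a median of 0.03. Mbnl1 and Mbnl2 were singled out after their values were seen.

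The other regulators of this kind did not pass the test. Ptbp1, a repressor of neuronal exons, changed by -0.02 (95% confidence interval -0.18 to 0.14) and its neuronal paralogue Ptbp2 by 0.13 (-0.11 to 0.38). Rbfox2, whose protein binds UGCAUG, differed by -0.11 (-0.31 to 0.09) and Celf1, a binder of GU-rich elements, by 0.04 (-0.10 to 0.19). The estimates were 0.04 for Khdrbs1 (Sam68), 0.23 for Tia1, which promotes recognition of weak 5' splice sites, and -0.04 for Elavl1, a stabiliser of AU-rich mRNAs. Elavl1 lies among genes of chromosome 8 with a median change of -0.60, of which 12 of 20 fell past the test, against -0.04 for its brightest probe set. Its 5 dimmer probe sets differed by -0.24, -0.48, -2.50, -0.10 and -0.06, of which -0.48 and -2.50 passed, and the mean over all 6 was -0.57 (adjusted p = 0.000745).

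**Figure D3:**
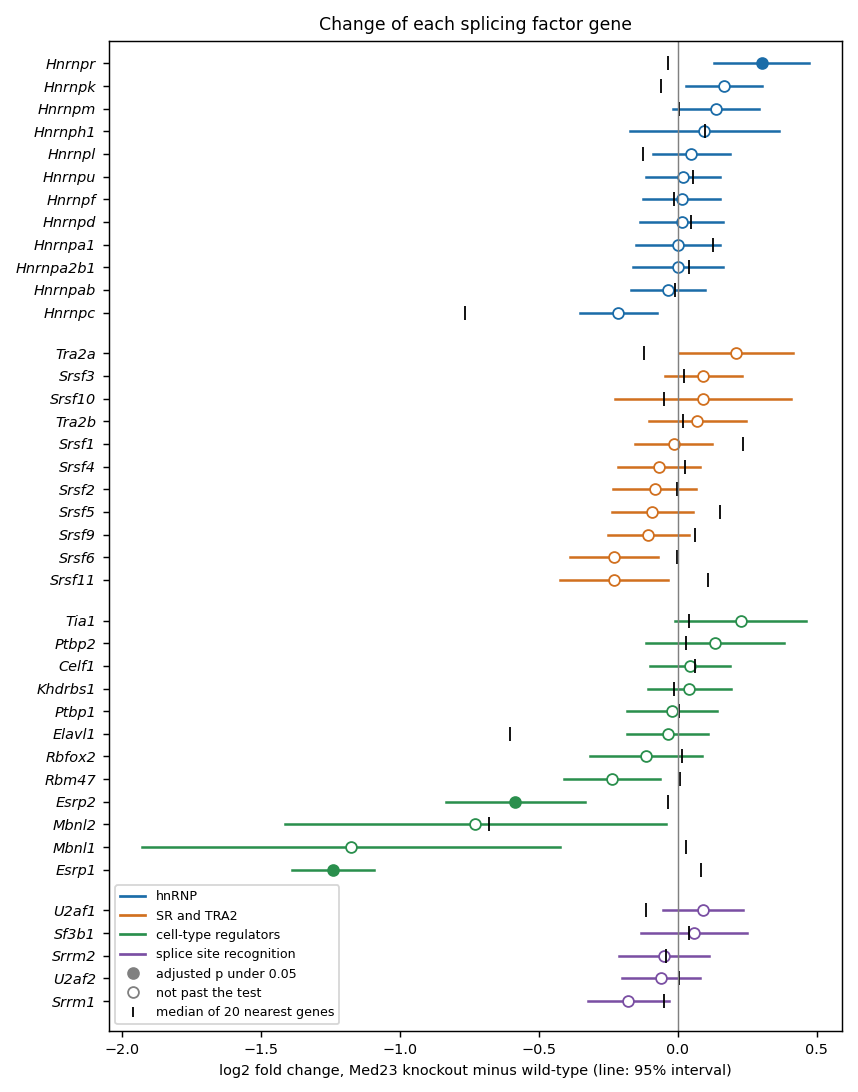
Circles give the log2 fold change of each gene (knockout minus wild-type), lines its 95% confidence interval, filled circles those past the test, and black ticks the median change of the 20 nearest genes on the chromosome. Most intervals are narrow and cross or touch 0. Esrp1, Mbnl1, Mbnl2 and Esrp2 have the lowest changes, with wide intervals and open circles for Mbnl1 and Mbnl2. Hnrnpc, Mbnl2 and Elavl1 have ticks at or below -0.60.

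Among the hnRNP genes, 1 of 12 rose, none fell, and the other 11 lay between -0.21 and 0.17. Hnrnpr, whose protein binds nascent transcripts and is related to Syncrip, had 10.17, 10.37 and 10.33 in wild-type and 10.59, 10.58 and 10.60 in knockout replicates 1, 2 and 3. All knockout arrays lay above all wild-type arrays. Group means of 10.29 ± 0.11 and 10.59 ± 0.01 (SD, n = 3 each) differed by 0.30 (95% confidence interval 0.13 to 0.47, SE 0.07, limma adjusted p = 0.0342), which is 1.23-fold. The other probe sets of Hnrnpr past the test, 2 in number, were higher by 0.39 and 0.37, and the 2 dimmest differed by 0.00278 and -0.16. The mean over its 5 probe sets was 0.181 and did not pass (adjusted p = 0.105). The call was also lost without wild-type replicate 3 (adjusted p = 0.0608) and without knockout replicates 1, 2 or 3 (0.107, 0.106 and 0.114); over all alternatives the adjusted p ran from 0.00573 to 0.114.

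Hnrnpl, the gene of the splicing factor reported to act with MED23, had 11.40, 11.35 and 11.35 in wild-type and 11.45, 11.40 and 11.40 in knockout replicates 1, 2 and 3. The groups overlapped. Its log2 fold change was 0.05 (SE 0.06, 95% confidence interval -0.09 to 0.19, limma adjusted p = 0.661), so that the interval held no change beyond 0.19 in size. No alternative brought it past the test (adjusted p 0.408 to 0.851). Its second probe set was at 3.36 in wild-type and 3.47 in knockout cultures, under the overall probe set median.

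The probe sets with the highest values that did not pass were those of Hnrnpc and Hnrnpab. Hnrnpc, whose protein binds uridine tracts and counts the length of nascent RNA, had 13.51, 13.51 and 13.44 in wild-type and 13.28, 13.26 and 13.28 in knockout replicates 1, 2 and 3. The groups did not overlap, and the change of -0.21 (95% confidence interval -0.35 to -0.07) missed the threshold (adjusted p = 0.0558; 0.000511 to 0.169 over the alternatives). Hnrnpc lies within chromosome 14 genes with a median change of -0.77, of which 18 of 20 fell past the test; its value minus that median was 0.55. Hnrnpab, which encodes a binder of AU-rich RNA, had 13.38, 13.39 and 13.38 in wild-type and 13.36, 13.35 and 13.32 in knockout replicates 1, 2 and 3, a difference of -0.04 (95% confidence interval -0.17 to 0.10, adjusted p = 0.758). Of its 7 probe sets only 1, a dimmer one, passed the test, lower by -0.27 (limma adjusted p = 0.0344). Another dimmer one went the opposite way by 0.23 without passing (0.0585).

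Hnrnpk, a binder of poly(C), differed by 0.17 (95% confidence interval 0.03 to 0.30, adjusted p = 0.115) with groups that did not overlap. Hnrnpm differed by 0.14 (-0.02 to 0.29). Hnrnpa1 and Hnrnpa2b1, repressors that bind UAG motifs, differed by 0.00115 and 0.00105, with intervals of -0.15 to 0.15 and -0.16 to 0.16. Hnrnpd, Hnrnpf, Hnrnph1 and Hnrnpu lay between 0.02 and 0.10.

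The promoters of these genes were set beside those of all genes. RefSeq promoter windows (GRCm38.p6), 250 bases long and ending at the transcript start, were matched by symbol for 35 of the 40 genes, with the window listed first where there were several. The median GC content was 60.8% and the median ratio of observed to expected CpG was 0.95, against 52.0% and 0.38 over 27018 promoters. The letters CCAAT, searched on both strands, occurred in 18 of 35 windows (51.4%) and in 34.5% of all. The ETS core CCGGAAG was in 5 (14.3%, against 7.05%), the EGR site GCGNGGGCG in 5 (14.3%, against 4.65%), the E-box CACCTG in 5 (14.3%, against 17.1%) and TATAAA in 4 (11.4%, against 13.0%), each on either strand. The 27018 promoters were not matched to these genes in GC content, CpG ratio or expression. Windows for Esrp1, Esrp2, Rbfox2, Khdrbs1 and U2af2 were not analysed here. The letters occurred 4 times, the most of any of the 35 windows, in those of Hnrnpa1, Hnrnpc, Hnrnpl and Hnrnpr, whose transcripts differed by 0.00115, -0.21, 0.05 and 0.30. All 4 windows are shown 5' to 3' for that reason, with CCAAT or its reverse complement ATTGG in capitals. Hnrnpr has a second window that is not shown. A match is a description of the letters and not of a bound site.
Hnrnpa1, chr15:103240147-103240396, plus strand: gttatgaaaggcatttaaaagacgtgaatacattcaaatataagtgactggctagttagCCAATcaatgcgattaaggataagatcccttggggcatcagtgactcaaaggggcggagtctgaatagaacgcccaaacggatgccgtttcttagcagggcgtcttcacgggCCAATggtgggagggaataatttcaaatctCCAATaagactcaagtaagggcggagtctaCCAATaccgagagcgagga
Hnrnpr, chr4:136310692-136310941, plus strand: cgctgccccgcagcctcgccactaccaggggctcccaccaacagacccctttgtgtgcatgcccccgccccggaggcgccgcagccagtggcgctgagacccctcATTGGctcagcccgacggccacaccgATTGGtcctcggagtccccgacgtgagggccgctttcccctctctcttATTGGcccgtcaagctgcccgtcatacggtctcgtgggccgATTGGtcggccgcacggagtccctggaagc
Hnrnpl, chr7:28810640-28810889, plus strand: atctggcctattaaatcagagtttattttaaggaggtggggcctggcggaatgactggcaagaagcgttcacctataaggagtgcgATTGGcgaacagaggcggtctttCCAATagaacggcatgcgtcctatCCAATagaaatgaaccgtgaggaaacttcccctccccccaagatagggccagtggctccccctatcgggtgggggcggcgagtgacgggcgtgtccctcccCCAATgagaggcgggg
Hnrnpc, chr14:52104022-52104271, minus strand: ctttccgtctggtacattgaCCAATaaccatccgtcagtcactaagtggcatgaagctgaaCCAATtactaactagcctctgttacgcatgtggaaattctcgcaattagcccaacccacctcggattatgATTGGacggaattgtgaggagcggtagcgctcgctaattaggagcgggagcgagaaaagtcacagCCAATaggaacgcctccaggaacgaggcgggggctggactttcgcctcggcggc

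None of the 11 measured SR and TRA2 genes passed by its brightest probe set. An unadjusted limma p under 0.05 was found in 3 of the 11, against 16.7% of all genes higher and 16.3% lower. The changes of these 11 genes lay between -0.23 and 0.21. For Srsf1, the prototype SR protein, the difference was -0.01 (95% confidence interval -0.15 to 0.13), for Srsf2 -0.08 (-0.23 to 0.07) and for Srsf3 0.09 (-0.05 to 0.23). Srsf4, Srsf5 and Srsf9 lay between -0.11 and -0.07, and Srsf10, which acts as a repressor when dephosphorylated, was at 0.09 (-0.22 to 0.41). Srsf11 differed by -0.23 (-0.42 to -0.04, adjusted p = 0.125). Tra2a and Tra2b, binders of GAA repeats, differed by 0.21 and 0.07. Srsf11 was lower past the test without wild-type replicate 1, with the variance trend (adjusted p = 0.0362) and by its second probe set (-0.33, 0.0471), and Tra2a was higher without wild-type replicate 3.

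Srsf6 depended on the probe set. Its brightest one read 12.12, 12.17 and 12.02 in wild-type and 11.91, 11.87 and 11.85 in knockout replicates 1, 2 and 3, a difference of -0.23 (SE 0.07, adjusted p = 0.0663). It passed as lower with the variance trend (0.00567), array weights (0.0392) and the level filter (0.0248). All 3 others went the opposite way and passed the test, with changes of 0.40, 0.37 and 0.38 (adjusted p 0.00867 to 0.0186). The next brightest read 11.09, 11.05 and 11.30 in wild-type and 11.54, 11.56 and 11.53 in knockout cultures. In each of the 4 probe sets the groups did not overlap. Which transcript regions they read is not given in the sources used, so no direction can be given for the gene, which was singled out after its values were seen.

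**Figure D4:**
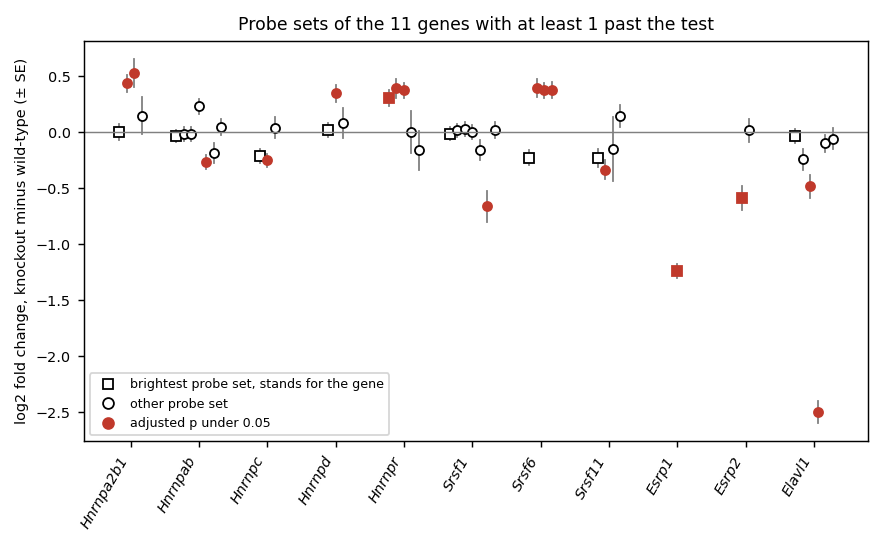
Each mark is the log2 fold change (knockout minus wild-type) of 1 probe set with its standard error, from brightest to dimmest within each of 11 genes; squares stand for the gene and red marks passed the test. The 4 probe sets of Srsf6 lie on both sides of 0, and 1 dim probe set of Elavl1 lies at -2.50.

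Over all 149 probe sets of these genes, 9 were higher (against 6.69% of all probe sets) and 8 lower (against 7.43%), in 11 genes. No gene had probe sets past the test in both directions. Hnrnpa2b1 had 2 probe sets higher, by 0.43 and 0.53 (adjusted p 0.0101 and 0.0320), beside its brightest at 0.00105. In Srsf1, 1 of 7 probe sets was lower, by -0.66, and the other 6 lay between -0.16 and 0.03. In Elavl1, a dim probe set had 5.48, 5.33 and 5.11 in wild-type and 2.82, 2.80 and 2.81 in knockout replicates 1, 2 and 3. Its change was -2.50 (SE 0.10), with the knockout values below the overall median of probe sets, so its size is uncertain. The brightest probe sets of Hnrnpa1, Hnrnpf, Srsf1 and Khdrbs1 carry the suffix x and that of Srsf2 the suffix s, which in Affymetrix naming mark probes that may be shared with other transcripts.

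The genes of splice site recognition also did not pass. U2af1 and U2af2, the subunits that bind the 3' splice site, differed by 0.09 (95% confidence interval -0.05 to 0.24) and -0.06 (-0.20 to 0.08). Sf3b1, of the U2 snRNP that binds the branch point, differed by 0.06 (-0.13 to 0.25). The splicing coactivator genes Srrm1 and Srrm2 differed by -0.18 (-0.32 to -0.03, adjusted p = 0.112) and -0.05 (-0.21 to 0.11).

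Groups that did not overlap were counted as a measure free of the variance model. Of the 40 genes, 7 had all knockout arrays above all wild-type arrays and 12 had all below, or 17.5% and 30.0%, where 21.4% and 19.5% of all genes did. Those below numbered 5 of 11 SR and TRA2 genes, 4 of 12 cell-type regulators, 2 of 12 hnRNP genes and 1 of 5 genes of splice site recognition. Those above numbered 2, 1, 3 and 1 in the same order. The SR genes below include Srsf6, whose other probe sets went the opposite way.

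The remaining splicing machinery was read from further lists of 148 genes, of which 132 were measured. Of these, 11 rose and 10 fell, with a median of 0.01. Over all genes, 8.53% rose and 10.4% fell, so in this fit the lists as a whole held no more calls than the background. Leaving out 1 array ended 11 of these 21 calls in at least 1 fit, and 10 held in all 6. With the variance trend 20 of the 132 were higher and 19 lower, where 23.0% of all genes passed. By the second brightest probe set 11 of 93 were higher and 7 lower, where 15.9% passed. The share called was larger than over all genes in these settings only. Among 49 other RNA-binding regulators, 4 rose and 4 fell. The neuronal regulator genes Elavl4 and Nova1 rose by 0.65 and 0.43, and Sfpq, a paraspeckle protein gene, by 0.30. Celf4, a neuronal CELF gene, fell by 1.23, Rbfox1 by 0.37 and Elavl3 by 0.37. Outside this ranking, and named after their values were seen, Rbm24 rose by 0.29 and Acin1 fell by 0.36. Rbfox1 and Rbm24 had values under the overall probe set median in both genotypes. Neural markers gave 1 higher and 3 lower of 9, with array means of 5.28 to 5.42 in wild-type and 5.13 to 5.19 in knockout cultures. Neurog2 and Dcx were under the median in both genotypes. The part of neural markers in these changes was not tested. The calls of Sfpq, Rbfox1 and Rbm24 were each lost in 5 of the 6 leave-one-out fits and that of Elavl3 in 3 (adjusted p up to 0.143, 0.149, 0.125 and 0.0852, without knockout replicate 2, 1, 1 and 2). By their second brightest probe sets, none of Nova1 (0.197, adjusted p = 0.295), Elavl3 (-0.231, 0.291), Rbm24 (0.00134, 0.997) and Rbfox1 (0.0362, 0.854) passed. Sfpq did not pass as the mean over its probe sets (0.232, 0.0793).

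None of 9 SR protein kinase genes (Clk, Srpk, Prpf4b and Dyrk1a) passed with limma. An unadjusted p under 0.05 was found in 1 of the 9, against 16.7% of all genes higher and 16.3% lower. Of 23 genes of the U1 and U2 snRNPs and the Sm ring, Snrpa1 (U2 A') and Sf3a1 rose by 0.56 and 0.25, and Snrpn, Snrpb and Phf5a fell by 0.34, 0.27 and 0.24. Of these, only the call of Snrpa1 held in all 6 fits; the highest adjusted p was 0.162 for Snrpn and 0.145 for Sf3a1 (both without knockout replicate 2; by its second probe set Sf3a1 changed by -0.255), 0.119 for Phf5a (without knockout replicate 3) and 0.102 for Snrpb (without knockout replicate 1). Of 21 genes of the U4/U6.U5 tri-snRNP and LSm ring, Snrnp40 and Snrnp27 rose by 0.39 and 0.35 and none fell; the call of Snrnp27 ended without knockout replicate 2 (adjusted p = 0.0544).

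Of 21 genes of the Prp19 complex and splicing helicases, Ppie, Syf2 and Crnkl1 rose by 0.43, 0.41 and 0.29, and Xab2 and the helicase gene Dhx16 fell by 0.60 and 0.40. Neighbours of Xab2 had a median change of -0.61 and those of Acin1 -0.68. Of 9 genes of the exon junction complex and nonsense-mediated decay, Casc3 fell by 0.32 and none rose. Crnkl1 did not pass by its second probe set (0.229, adjusted p = 0.455). The calls of Crnkl1 and Casc3 each ended in 4 of the 6 fits (adjusted p up to 0.102 without knockout replicate 2 and 0.0780 without knockout replicate 1).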

How the data were processed

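Total RNA from 3 wild-type and 3 Med23 knockout cultures was hybridised to Affymetrix arrays as biotinylated cRNA, per the labels' protocols. The authors deposited log2 expression values in a single table; their range gave the log2 unit. RMA and MAS5 are named without a role, per the submitters' processing notes, without versions. No further normalization was applied, and the table has no detection calls and 0 columns of other samples.

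Of 45101 probe sets, 64 controls were left out and 45037 tested with limma 3.58.1 in R 4.3.3 (lmFit, eBayes, no trend; 4 residual and 3.08 prior degrees of freedom), with two-sided p-values adjusted over all probe sets (Benjamini-Hochberg, 0.05). Confidence intervals (95%) use the moderated errors. One symbol was annotated to 34945 probe sets, several to 932 and none to 9160; 34741 were matched by Entrez identifier to RefSeq symbols and gene order (GRCm38.p6), with no build named for the arrays. Neighbours are the 20 nearest genes on the chromosome with a mean above the median of all probe sets, at any distance.

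Genes named with all arrays were those past the test, Hnrnpl and the 2 of highest value that did not pass. Mbnl1, Mbnl2, Rbm47, Srsf6 and a probe set of Elavl1 were added after their values were seen. From each further list up to 3 genes per direction were named, without array values. Members and lists were chosen with earlier results of these data known. Alternatives were quantile normalization, median centring, a variance trend, array weights, a level filter, a replicate block, leaving out each array, other choices of probe set, and leaving out genes in low neighbourhoods. The script was tested on simulated data.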

Additional observations from a re-analysis of the deposited data

How the results depend on the processing

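Esrp1 fell under each alternative run for it. The number of splicing factor genes higher was 2 with the variance trend and with the level filter, 4 by the second brightest probe set, and 0 to 1 in fits that left out 1 array. The number lower was 7 with the trend, 7 with the filter, 6 with array weights, and 1 to 5 without 1 array. The median log2 fold change was -0.0199 after quantile normalization, 0.00208 after median centring, 0.0147 by the second probe set, 0.000253 without probe sets marked x or s, 0.00115 without the 3 genes in low neighbourhoods, and -0.0322 to 0.00447 without 1 array. Srsf6 turned to 0.229 as the mean of its probe sets and to 0.397 by its second one, Esrp2 to 0.0174 by its second. Sf3a1 turned to -0.255 and Rbfox1 to 0.0362 by theirs, and Rbfox1 likewise without probe sets marked x or s. The cause was not tested. Of the 21 calls among the other splicing genes, 16 held as the mean over probe sets and 9 of 15 by the second one.

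With the replicate number as a block, 0 of the 40 genes were higher and 2 lower, where 13.8% of all genes passed. The limma adjusted p of Hnrnpr became 0.0829. Deviations of same-numbered arrays from their group means correlated at -0.13, -0.06 and 0.00083. These values give no sign of pairing by number but cannot exclude it. The labels do not say whether the cultures were paired. With the trend, 20 of the 132 other splicing genes were higher and 19 lower, where 23.0% of all genes passed. With the block, 7 were higher and 5 lower, where 13.8% passed. Signal near background limits the dim genes.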
